A study of Mus musculus with 2 samples.

Results

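Ribosomal protein genes and their paralogs were followed in cultured mouse lung fibroblasts, as the 86 of 27998 listed genes whose symbol is a whole ribosomal protein name. They comprise 46 genes of the large (60S) subunit, 31 genes of the small (40S) subunit and 9 paralogs. Paralogs are taken here by symbol, as a parent gene's symbol with a suffix (Rpl22l1, Rpl36al, Rpl7l1, Rpl6l, Rpl39l, Rpl3l, Rpl10l, Rps27l and Rps27rt). Whether their proteins act as those of the parent genes do was not tested. The same prefix is carried by 16 pseudogene symbols and by 11 symbols of S6 kinases and a binding protein, and these were left out. The members fit their label by symbol, except that RefSeq annotates Rpl6l as a pseudogene. Constituents of the ribosome such as Fau and Gnb2l1 (the older symbol of Rack1) fall outside the rule by symbol.

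The study holds 2 single-cell libraries of wild type C57BL/6 lung fibroblasts, grown out from whole dissociated lung in medium with 10% serum and carried to passage 3. Control cells received vehicle and stimulated cells an agent or a mixture for 14 days, and both came from 1 lung according to the labels. The protocol lists 10 µM rosiglitazone, 1 µM SB4315442 and 4 µM rhBMP4, and also a 1% insulin-containing supplement (ITS+3), without saying which the stimulated library received. The kept cells numbered 4703 in the control library (88573140 UMIs, median 19634 per cell) and 7468 in the stimulated library (117193148 UMIs, median 15379.5), where a UMI marks 1 captured molecule. Kept cells of the libraries had 46 barcodes in common. Since each group is a single library, no spread between replicates and no test could be given, and the 95% intervals cover counting error only. In the control library 154 cells (3.27%) carried macrophage markers above 0.5% of their UMIs, against 1 cell in the stimulated library. All 10 fibroblast markers were detected in both libraries (summed level 11684 CPM in control and 5629 CPM in stimulated cells). The 6 epithelial markers summed to 0.677 and 0.751 CPM and the 6 lymphocyte markers to 0.655 and 0.111 CPM.

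A ribosome is built from a small subunit, which reads the mRNA, and a large subunit, which joins amino acids, and each carries 1 copy of nearly every ribosomal protein. The mRNAs of these proteins begin with a C followed by a run of pyrimidines, the 5′ terminal oligopyrimidine (TOP) motif, through which the growth kinase mTOR and the binding protein Larp1 control their translation. They are among the most abundant mRNAs of growing fibroblasts, and their many processed gene copies make read assignment difficult.

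The start regions of genes discussed further on are shown with their pyrimidine runs, which need not be the TOP motif. RefSeq promoter windows (GRCm38.p6) matched 65 of the 86 members. Each sequence covers 30 bases around the longest unbroken run of C and T found within 30 bases before and 50 bases after the annotated start, and capitals mark that run. The run began 27 bases after the annotated start in Rpl36a, 36 in Rpl39, 38 in Rps24, 40 in Rpl41 and 1 in Rpl22l1. It began 4 to 22 bases before the start in Rpl15, Rpl35, Rps28 and Rps25. The runs of Rpl39, Rps24 and Rpl41 reach the end of the stretch and may be cut off. The first 3 genes were the highest in the stimulated library relative to the control, the next 3 were among the lowest, and the last 3 varied together across cells.
Rpl15, chr14:18270966-18270995, minus strand: gaaagCCTTCTTCCTTTCCTCTggcggcag
Rpl35, chr2:39005114-39005143, minus strand: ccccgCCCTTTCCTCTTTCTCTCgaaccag
Rpl36a, chrX:134585674-134585703, plus strand: gctctagCCTCTCTCTTTCCgagctgctag
Rpl41, chr10:128549119-128549148, minus strand: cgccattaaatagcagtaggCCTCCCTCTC
Rps28, chr17:33824559-33824588, minus strand: gaggaTTCCTgggtaccgcgtgcggtctcg
Rpl22l1, chr3:28805504-28805533, plus strand: gcccgTTCTCTTCCCacggctgcagctcaa
Rpl39, chrX:37085173-37085202, minus strand: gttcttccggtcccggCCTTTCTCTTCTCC
Rps24, chr14:24490698-24490727, plus strand: ttggtcggcagtgagcggTCCTCTTTTCCT
Rps25, chr9:44407687-44407716, plus strand: ccgggCTTCCTTTTTTTCCgacatcttagc

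A run of at least 8 pyrimidines lay in this 80-base stretch of 50 of the 65 members, or 76.9%, against 32.3% of all 27025 genes with a window. The longest run had 17 bases in Rpl15 and 18 in Rpl35, and only 5 in Rps28. A C followed by at least 4 pyrimidines stood exactly at the annotated start in 21.5% of members and 3.01% of all genes. The letters CTTTC occurred on the sense strand of the stretch in 50.8% of members (11.8% of all genes) and on the other strand in 13.8% (11.4%). CCGGAAG, the core of ETS factor sites, was found on either strand of the whole 300-base window in 40% of members and 9.93% of all genes. These motifs may overlap each other and are matches of letters only.

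Ribosomal protein genes took 33.6% of all UMIs in the control library and 35.7% in the stimulated library. Over single cells the median share was 32.9% (quartiles 27.5 and 37.7%) in control and 35.6% (31.4 and 39.3%) in stimulated cells, so the quartile ranges overlapped. Both subunits had the higher share in the stimulated library, the 60S genes with 20.3% against 19.1% and the 40S genes with 15.02% against 14.1%. The ratio of 60S to 40S UMIs was the same to within rounding, 1.35 in each library. UMI shares add to a fixed total, so more ribosomal protein mRNA and less of other mRNAs cannot be told apart.

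Level differences between members were large and were kept between libraries. Because 1 UMI stands for 1 molecule captured at its 3′ end, levels of different genes can be compared without correction for length. They are not corrected for UMIs assigned to near copies of a gene, which members have to unequal degrees. Core members ranged from 734.7 CPM (UMIs of a gene per 1000000 UMIs of the library) for Rpl27 to 12937 CPM for Rpl41 in the control library, a ratio of 17.6, and from 869 CPM for Rpl27 to 10212 CPM for Rps19 in the stimulated library. The log2 levels of the 77 core members correlated between libraries with a Pearson r of 0.973 and a Spearman rho of 0.975, as a description across genes. Rpl41, Rps19, Rpl13, Rplp0 and Rplp1 were among the most abundant members on average. Rps19, a 40S gene mutated in human Diamond-Blackfan anaemia, was at 10004 CPM in control cells and 10212 CPM in stimulated cells. Rpl41 summed with its near copy Gm10076 was at 14705 CPM in stimulated cells, above Rps19. Rpl13 was at 8292 and 9430 CPM, Rplp0, which forms the base of the acidic stalk, at 7823 and 9283 CPM, and Rplp1, a stalk protein gene, at 8390 and 8368 CPM.

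Between libraries most members stayed close together, and a few stood apart. A gene with a mean of 5 CPM or more was compared, and it was called higher where the stimulated level was at least 25% above the control level, and lower where the control level was at least 25% above the stimulated level. Of the 83 members compared, 3 were called higher (Rpl15, Rpl35 and Rpl36a), while 15.9% of all 8787 genes compared were. Another 4 were called lower (Rpl6l, Rpl22l1, Rps28 and Rpl41), against 24.9% of all genes. At 1.5-fold, 2 members were higher (7.75% of all genes) and 0 lower (12% of all genes). The remaining 76 were called neither way, and 45 lay within 1.1-fold. The median log2 fold was 0.10 (quartiles 0.03 and 0.18) for members and -0.06 for all genes compared. It was 0.10 for the 60S and 0.11 for the 40S genes. The fold was above 1 for 66 of 83 members, and for 75 of 83 under TMM scaling, which added 0.10 to every log2 fold. That scaling gave 14 members called higher, against 21.9% of all genes, and 0 lower, against 18.2%. With the median of all genes set to 0, 7 members were called higher (19% of all genes) and 1 lower (20.6%).

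**Figure D1:**
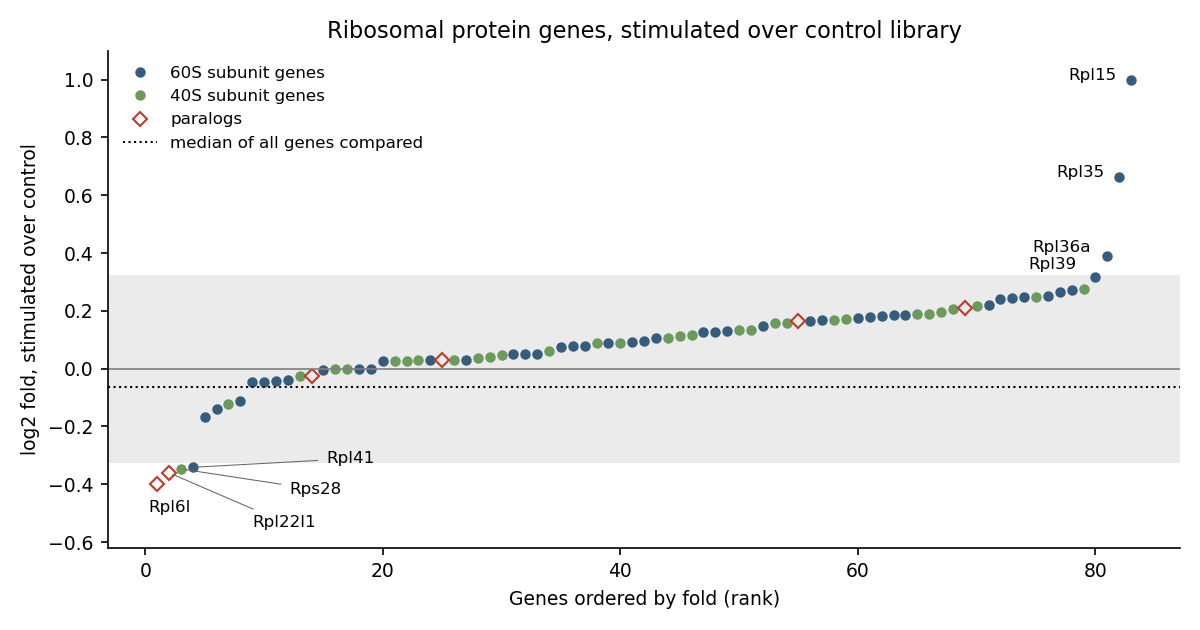
Log2 fold of stimulated over control CPM for the 83 members compared, ordered by fold, with 60S genes, 40S genes and paralogs marked, the range in which no gene was called shaded and the median of all genes compared (-0.06) dotted. Rpl15 and Rpl35 stand above all others, and 4 members lie below the shaded range.

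Rpl15, a 60S protein gene also mutated in human Diamond-Blackfan anaemia, was at 949.6 CPM in control cells and 1897 CPM in stimulated cells. That is 1.998-fold higher (1.98 to 2.01), the largest fold of the 83 members compared. Rpl35, whose protein sits beside the exit of the peptide tunnel, was at 3614 and 5727 CPM, 1.58-fold higher (1.58 to 1.59). Both differences were present in every class of cells. The log2 fold of Rpl15 ran from 0.93 to 1.34 and that of Rpl35 from 0.65 to 0.80 over 5 depth classes and 3 cycling grades. Rpl36a, an X-linked 60S gene, followed with 2458 and 3221 CPM, 1.31-fold higher (1.304 to 1.317). The next members stayed short of a call: Rpl39 (2458 and 3059 CPM), Rps20 (4678 and 5662 CPM), Rpl28 (3134 and 3786 CPM), Rpl37a (5616 and 6742 CPM), Rpl12 (3033 and 3613 CPM), Rps21 (1697 and 2015 CPM) and Rplp0. Under TMM scaling, which moves every gene alike, these 7 had log2 folds of 0.35 to 0.42 and were called higher, as were 21.9% of all genes.

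Among members lower in the stimulated library, Rps28, a 40S protein gene, was at 2168 CPM in control cells and 1704 CPM in stimulated cells, 1.27-fold lower (1.26 to 1.28). Rpl41, which encodes the shortest ribosomal protein, was at 12937 and 10211 CPM, 1.27-fold lower (1.26 to 1.27). The following members stayed short of a call: Rpl29 (3118 and 2777 CPM), Rpl13a (8486 and 7708 CPM), Rps2 (6986 and 6424 CPM), Rpl36 (2906 and 2687 CPM), Rpl23a (3348 and 3242 CPM) and Rpl3 (3730 and 3615 CPM). Of these 8 genes only Rpl3 had no 3′ end window in common with another listed gene. Rpl22l1, called lower too, also had 0 such windows. The shares of windows that matched another gene were 37.1% for Rps28, 57.6% for Rpl41, 65.5% for Rpl15, 79.3% for Rpl35, 5.45% for Rpl36a and 0 for Rpl39. Of the next higher members, Rplp0 had 68.2%, and Rps20, Rpl28, Rpl37a, Rpl12 and Rps21 had 0. The part of near copies in these folds was not tested.

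For Rpl41, a near copy differed between libraries in the opposite direction. Gm10076 on chr14 (chr14:105681828-105682211, plus strand, GRCm38) contains the entire 78-base coding sequence of Rpl41 (chr10:128548114-128549305, minus strand) with 0 mismatches, and the last 90 bases of Gm10076 also occur in Rpl41 with 0 mismatches. The sequence is shown because reads that fall within it cannot be assigned to one gene of the pair, and no base is in capitals as none differs.
Rpl41 and Gm10076: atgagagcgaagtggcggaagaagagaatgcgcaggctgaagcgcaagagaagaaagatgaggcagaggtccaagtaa

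Gm10076 was at 1240 CPM in control cells and 4495 CPM in stimulated cells, a log2 fold of 1.86. Summed with it, Rpl41 was at 14177 and 14705 CPM, a log2 fold of 0.053 in place of -0.34. The split of the pair differed cell by cell: Gm10076 made up a median of 8.71% of the pair's UMIs in control cells (5th to 95th percentile 5.80 to 11.7%) and 30.5% in stimulated cells (25.6 to 35.6%), ranges that did not overlap. Rplp1 and its copy Gm10073 had the same pattern, with 4 mismatches in the last 200 bases. Gm10073 took 1.76% of the pair's UMIs in control and 9.85% in stimulated cells, and the sum was 1.09-fold higher (1.08 to 1.09) where Rplp1 alone was at 8390 and 8368 CPM.

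For Rpl15 and Rpl35, adding the copies moved little. The sum of Rpl15 and Gm10020 was at 999 and 1986 CPM, a log2 fold of 0.99, and that of Rpl35 with its copies at 3725 and 5805 CPM, a log2 fold of 0.64. Among all genes compared, 16.6% of the 217 with at least 25% of windows matching another gene were at least 1.5-fold higher, against 7.61% of the 7999 with no such window, whereas 12.4 and 12.2% were at least 1.5-fold lower and the median log2 fold was -0.06 in both sets. Of the members, 57 had no near copy, and 1 of these was called higher (Rpl36a) and 1 lower (Rpl22l1). The log2 fold of Gm10076 lay between 1.73 and 2.21 over the 8 depth and cycling classes. How reads of these copies were assigned in each library was not tested.

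**Figure D2:**
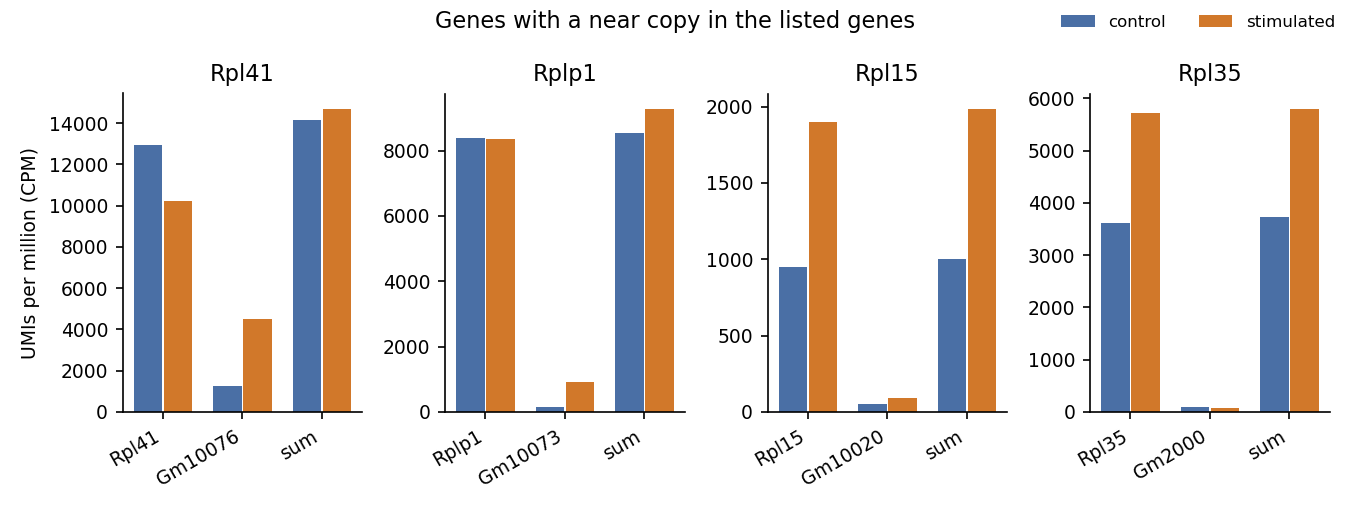
UMI counts on the CPM scale, in control and stimulated cells, for 4 members, a near copy of each and the sum of the member with all its near copies; each panel has its own axis starting at 0. Gm10076 is higher (4495 against 1240 CPM) and Rpl41 lower in stimulated cells, while the sums of Rpl15 and Rpl35 keep the difference of the members.

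The paralogs differed widely in level. Rps27l, a p53 target, was at 1584 CPM in control cells and 1617 CPM in stimulated cells, Rpl36al at 1067 and 1195 CPM, and Rpl22l1 at 903.3 and 703.6 CPM. Rps27rt was at 124.7 and 122.5 CPM, Rpl6l at 89.6 and 67.9 CPM, and Rpl7l1 at 50.04 and 57.9 CPM. The folds of Rps27rt and Rpl6l are uncertain, since 90% and 90.9% of their windows match another gene. The paralogs known from specialised tissues were near absent: the germ cell paralog Rpl39l had 197 UMIs in control and 185 in stimulated cells (2.22 and 1.58 CPM), the muscle paralog Rpl3l had 10 and 2 UMIs (ratio of levels 0.151, 0.0161 to 0.709) and the testis paralog Rpl10l had 1 and 0 UMIs. A count of 0 in the stimulated library allows up to 0.0256 CPM. Together the paralogs made up 0.382% of control and 0.376% of stimulated UMIs.

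Among the paralogs without near copies, the largest difference in share was in the pair of Rpl22 and Rpl22l1, in which the Rpl22 protein is known from mouse cells to repress Rpl22l1. Rpl22l1 was 1.28-fold lower (1.271 to 1.296) in the stimulated library and Rpl22 1.12-fold higher (1.12 to 1.13), at 1507 and 1695 CPM. The share of Rpl22l1 in the pair was 37.5% (37.3 to 37.7%) in the control and 29.3% (29.2 to 29.5%) in the stimulated library. It was lower in the stimulated library in each of the 5 depth classes, at 34.2 against 24.99% in the shallowest, 33.4 against 29.02%, 35.5 against 29.1%, 38.3 against 29.9% and 39.5 against 28.3% in the deepest. Among cells without cycling UMIs it was 37.2 against 28.4%. The level of Rpl22l1 itself differed by class, with log2 folds of -0.51 to -0.00 over the depth and cycling classes. In cells of 3000 to 10000 UMIs it was 701 CPM in control cells and 699.5 CPM in stimulated cells, and in cells of 20000 to 40000 UMIs 978 and 717 CPM.

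Other pairs differed less. Rpl36al made up 30.3% of its pair with Rpl36a in control and 27.1% in stimulated cells, where Rpl36a was higher. Rps27l made up 30.3 and 30.4% of its pair with Rps27, and Rpl7l1 2.29 and 2.39% of its pair with Rpl7. Within each library cycling cells had the larger paralog share in 3 of these pairs. Rps27l was at 28.0% in non-cycling and 34.4% in cycling control cells, and at 27.3 and 32.4% in stimulated cells. Rpl36al was at 28.8 and 32.5% in control and at 24.7 and 28.9% in stimulated cells, and Rpl7l1 at 1.73 and 2.95% and at 1.87 and 2.79%. Rpl22l1 showed no such order, with 37.2 and 36.8% in the control and 28.4 and 29.8% in the stimulated library.

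**Figure D3:**
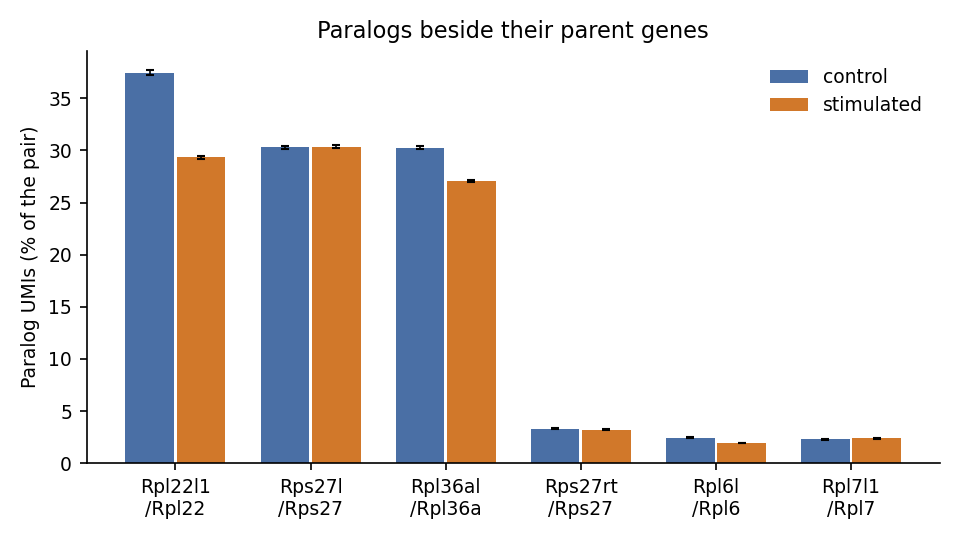
Share of the paralog in the UMIs of paralog and parent gene, in percent, for the 6 paralogs with a mean of at least 5 CPM; bars give each library and error bars exact binomial 95% intervals. Rpl22l1 is lower in the stimulated library (29.3 against 37.5%), and Rps27l is at 30.3 and 30.4%.

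Cycling was graded after thinning cells of 5000 or more UMIs to 5000, by the UMIs of 12 cycling genes. Cells with at least 5 such UMIs were 21.0% of 4077 control cells and 35.2% of 6708 stimulated cells. The ribosomal protein share was lower in cycling cells of both libraries. Its median was 34.9% in control cells with 0 cycling UMIs, 34.0% with 1 to 4 and 32.9% with at least 5. In stimulated cells it was 37.8, 36.6 and 34.5%. Cycling cells had the lower median in every depth class of graded cells in both libraries, the lowest class holding only cells of 5000 to 10000 UMIs. In cells of 20000 to 40000 UMIs it was 34.2 against 37.2% for control and 34.3 against 37.1% for stimulated cells. The deepest class held few cells, 36 cycling and 24 non-cycling in the control and 23 and 4 in the stimulated library. The quartile ranges of the grades overlapped.

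The lower share in cycling cells was spread over most members. The level was lower in cycling cells for 72 of 83 members in both libraries, with a median log2 difference of -0.08 in control and -0.13 in stimulated cells, against 0.08 and 0.10 for all genes. Called lower by the same rule were 0 members (14.8 and 12.2% of all genes). Rps27 was lowest, at 3895 CPM in non-cycling and 3197 CPM in cycling control cells and at 4049 and 3375 CPM in stimulated cells. Rps28, Rpl37a, Rps27rt and Rpl10 followed, with log2 differences from -0.16 to -0.25. Only Rpl7l1 was called higher in cycling cells (28.9% of all genes in control and 29.8% in stimulated cells), at 37.7 and 62.7 CPM in control and at 47.5 and 65.3 CPM in stimulated cells. Rps27l, Rpl12, Rpl36al and Rpl29 were also above their non-cycling level in both libraries, by log2 differences of 0.01 to 0.15. Summed over 45 genes that process ribosomal RNA and assemble subunits, the level was 2116 CPM in non-cycling and 2878 CPM in cycling control cells. In stimulated cells it was 2281 and 3088 CPM. This was not particular to them, since 25 other initiation and elongation genes summed to 5772 and 6721 CPM in control cells. Those genes summed to 4966 and 6080 CPM in stimulated cells. The sum of 20 other TOP genes was lower in cycling cells, at 20884 and 20207.5 CPM in control and 24277 and 21957 CPM in stimulated cells. Abundant genes weigh most in such sums.

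The share was higher in deeper cells of the control library up to 40000 UMIs, and in the stimulated library it differed little above 3000 UMIs. The medians of control cells were 26.1% below 3000 UMIs, 29.2% at 3000 to 10000, 32.5% at 10000 to 20000, 35.7% at 20000 to 40000 and 30.02% above. Those of stimulated cells were 29.8, 35.6, 36.3, 35.5 and 33.8%. Total UMIs include those of the members, so share and depth are linked. With cells binned by their UMIs outside the members, the control difference between the 20000 to 40000 and the 3000 to 10000 class was -2.44 instead of 6.50 percentage points, and the stimulated one -7.37 instead of -0.08. UMIs outside the members are linked to the share in the opposite direction, so neither binning is free of such a link. These control bins held 480 and 776 cells. The Spearman rho with the share over control cells was 0.36 for total and 0.16 for outside UMIs, and over stimulated cells 0.11 and -0.07. Between these classes of total UMIs 37 of 83 members were called higher in deep control cells (25.5% of all genes) and 0 lower (16.4%). In deep stimulated cells 0 members were called higher (18.1% of all genes) and 0 lower (9.75%). Rps6 (3183 and 4664 CPM), Rpl29 (2312 and 3263 CPM), Rps2 (5190 and 7363 CPM) and Rpl22l1 were among the members with the largest differences of the same sign in both libraries. The stimulated log2 differences of these 4 were 0.03 to 0.11. Rpl38 and Rps26 were the only members lower in deep cells of both libraries, Rpl38 with 2125 and 1941 CPM in control cells and 2039 and 1879 CPM in stimulated cells.

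Macrophage markers moved with depth in the control library. They summed to 6310 CPM in the 3000 to 10000 class and 186 CPM in the 20000 to 40000 class, against 12.2 and 17.4 CPM in stimulated cells, and the marker-bearing control cells had a median ribosomal protein share of 20.2%. Without these cells, a choice made after seeing the data, the control difference between the classes was 5.64 percentage points, and 26 of 83 members were called higher, beside 27% of all genes, a share close to the background. The part of the markers in the remaining difference was not tested.

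**Figure D4:**
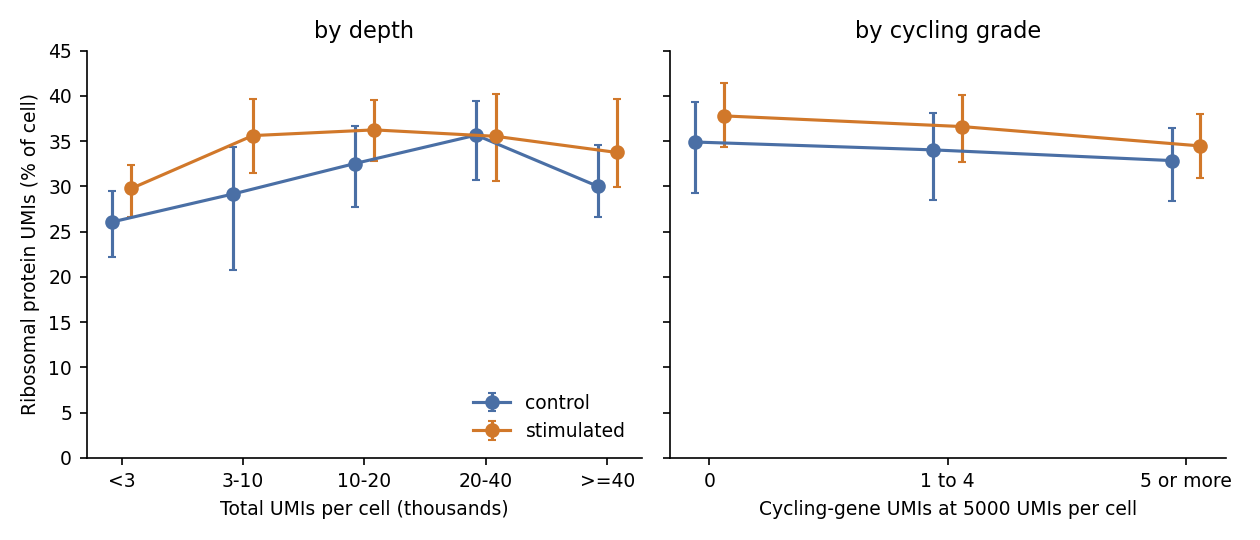
Ribosomal protein UMIs as percent of a cell's UMIs, by total UMIs per cell (left) and by cycling grade after thinning to 5000 UMIs (right); points are medians and bars quartiles over cells. The control medians run from 26.1 to 35.7% over the first 4 depth classes, with 30.02% in the deepest, and in both libraries the median is lowest at 5 or more cycling UMIs.

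Across cells the members did not all vary alike. At 5000 UMIs per cell the variance over the mean of a member's UMIs (Fano factor, 1 for pure sampling) had a median of 2.33 over core members in control and 1.80 in stimulated cells. Rpl41 (5.70 and 3.63) and Rps19 (4.86 and 3.52) had high values at means of 65.3 and 50.9 UMIs and of 49.6 and 51.5 UMIs. Rpl39, whose protein lines the peptide exit tunnel, had 5.48 in control and 5.63 in stimulated cells at a mean of 12.3 and 15.3 UMIs. A control cell had 3 Rpl39 UMIs at the 5th percentile, 10 at the median and 28 at the 95th, and a stimulated cell 4, 13 and 33. Rpl38, a 60S gene with means of 9.75 and 9.44 UMIs, had 4, 9 and 17 in control and 4, 9 and 15 in stimulated cells.

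The variation of Rpl39 ran with that of a few other members. Its Pearson r with Rps24, a 40S gene, was 0.62 in control and 0.62 in stimulated cells, with Rpl22l1 0.50 and 0.44, with Rps25 0.48 and 0.41, with Rps4x 0.42 and 0.41 and with Rps15a 0.42 and 0.40. The median over all 3403 pairs of the 83 members was 0.36 in control and 0.24 in stimulated cells. Rpl39 with Rps24 ranked 2nd of these pairs by the mean of both libraries. Control cells with 5 Rpl39 UMIs had a mean of 11.5 Rps24 UMIs and those with 25 had 22.5, and stimulated cells had 13.1 and 23.3. Rpl39 and Rps4x both lie on X, and the others on different chromosomes, Rps24 on 14, Rpl22l1 on 3, Rps25 on 9 and Rps15a on 7. The 3′ ends of Rpl39, Rps24, Rpl22l1, Rps25 and Rps15a match no other listed gene, while 15.2% of the windows of Rps4x do. In the promoter stretches printed above all of Rpl39, Rps24, Rpl22l1 and Rps25 hold a run of at least 10 pyrimidines. The median longest run of the 65 members with a window was also 10, so this does not set them apart. The longest run was 10 in Rps15a and 7 in Rps4x.

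The r of Rpl39 and Rps24 was similar within depth classes and cycling grades. It lay between 0.60 and 0.66 in cells of 1 cycling grade, of 10000 to 20000 or of 20000 to 40000 UMIs, and without marker-bearing cells, and it was 0.70 and 0.71 at 10000 UMIs per cell. Rpl39 itself correlated with total UMIs at 0.03 in control and 0.02 in stimulated cells, and with mitochondrial UMIs at 0.00 and 0.18. These values describe cells of 1 library each, which share library preparation and a fixed UMI total.

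**Figure D5:**
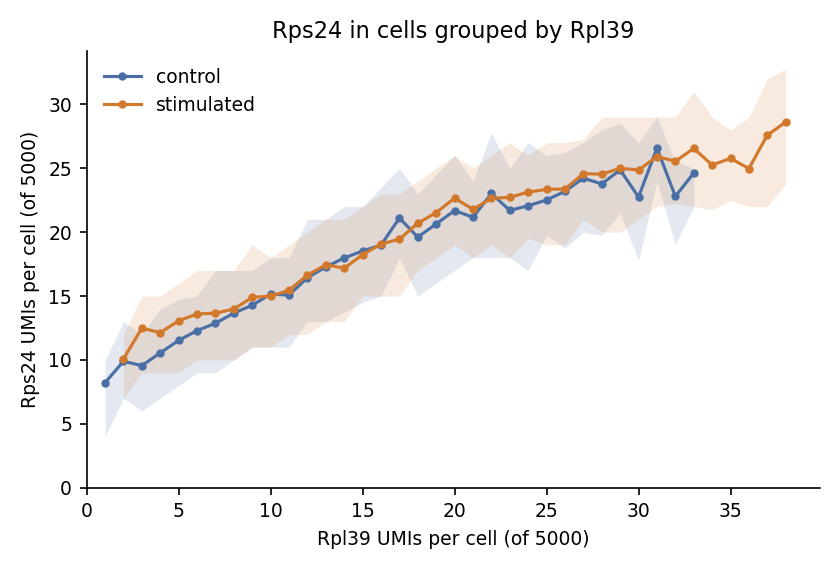
Mean Rps24 UMIs (points; shading gives quartiles) of cells grouped by their Rpl39 UMIs, both at 5000 UMIs per cell, for Rpl39 values held by at least 20 cells. Mean Rps24 is higher at higher Rpl39 in both libraries, with 11.5 and 13.1 UMIs at 5 Rpl39 UMIs and 22.5 and 23.3 at 25.

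Genes that work beside the ribosomal proteins were compared by lists. Of all 8787 genes compared, 15.9% were called higher and 24.9% lower, with a median log2 fold of -0.06. Of 20 other TOP genes, mostly translation factors, 1 was called higher (Tpt1, 2341 and 3273 CPM) and 1 lower (Eif4a2, 80.8 and 57.1 CPM), with a median log2 fold of 0.06. Eef1a1, the elongation factor that brings tRNA to the ribosome, was at 5604 and 6305 CPM, and Eef1g at 1969 and 1905 CPM. Of 42 ribosome biogenesis genes compared, 9 were higher and 0 lower, with a median of 0.15. Rcl1 had the largest fold, 1.61 (1.51 to 1.73), Rrn3 was the lowest with 20.3 and 17.0 CPM, and the most abundant were Polr1d (416.7 and 408.4 CPM), Nhp2 (266 and 287 CPM) and the nucleolin gene Ncl (259 and 284 CPM). Host genes of small nucleolar RNAs are TOP transcripts too. Most of the planned list, such as Gas5, Snhg1 and Zfas1, has no entry under these symbols among the listed genes. Their level is therefore not known here, and the count rests on few genes. Of 5 compared, 3 were lower and 0 higher (median log2 fold -0.49): Snhg12 (99.5 and 38.1 CPM), Snhg6 (237 and 122 CPM) and Epb41l4aos (49.3 and 35.2 CPM). Eef1b2, also a translation factor, was at 1285 and 1385 CPM.

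The counts that follow also stand beside 15.9% of all genes called higher and 24.9% called lower. Other initiation and elongation genes had 1 of 25 higher (Eef2k, 15.2 and 20.5 CPM) and 5 lower (median -0.08). The largest difference lower was that of Eif2s2, a subunit gene of initiation factor 2, with 685 and 425 CPM. Eif1 was at 1233 and 1039 CPM and Eif5a at 952 and 1024 CPM. Of 13 genes for growth control of TOP mRNAs, 2 were higher and 3 lower (median 0.07). Rheb, the activator of mTOR, was at 232 and 133 CPM, Eif4ebp1, an mTOR target that represses cap-dependent translation, at 825 and 581 CPM, Larp1 at 73.6 and 67.2 CPM and Myc at 10.4 and 15.7 CPM, 1.51-fold higher (1.396 to 1.638). Beside Rps27l, the 17 other p53 targets compared had 3 higher and 3 lower (median 0.04). Cdkn1a was at 399 and 403 CPM, Bax at 490.1 and 449 CPM, Phlda3 at 241 and 254 CPM, Plk2 3.42-fold lower and Gtse1, also a gene of cycling cells, 1.80-fold higher. Outside the rule, Fau was at 3447 and 3110 CPM and Gnb2l1 at 1931 and 1968 CPM. The median log2 fold of the 12 cycling genes was 0.58. Macrophage markers, 12 of 12 detected in each library, summed to 807 and 14.6 CPM, and the part of either list in these values was not tested.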

How the data were processed

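The authors deposited raw UMI counts for each library as a sparse gene by barcode matrix. Cell Ranger 3.0.2 wrote the matrices, per the file headers; Cell Ranger 1.3.1 and Seurat 3.0.0 stand in the submitters' processing notes. Libraries were made with a 10x Genomics Single Cell 3′ v2 kit, per the labels' protocols. The sources used here give neither genome build nor annotation.

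Barcodes with at least 500 genes and at most 20% mitochondrial UMIs were kept, and doublets were not removed. Summed counts were divided by the library total (CPM). Folds have exact conditional-Poisson intervals and shares exact binomial (Clopper-Pearson) ones, at 95%. The floor was 3 counts. For cycling grades and covariation, cells of 5000 or more UMIs were thinned to 5000. A 90-nt window, taken every 30 nt over the last 400 nt of a GENCODE M21 transcript, matched another gene if minimap2 2.31 placed it there with at most 2 mismatches. TMM (edgeR 4.0.16) served as an alternative scaling only. Python 3.11.15, numpy 2.4.6, scipy 1.17.1 and pandas 2.3.3 were used, and intervals were checked on simulated data.

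Members and lists were chosen with earlier results of these data known. Named are all paralogs, the 10 largest folds each way, the 6 most abundant members, the 5 largest cycling and depth differences each way of equal sign in both libraries, and in each list the 3 most abundant genes and the largest fold each way. Rpl39 and its partners were singled out after their values were seen. Some genes that these rules name are not reported here.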

Additional observations from a re-analysis of the deposited data

Results flagged for a closer look

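Signal was present in symbols outside the members. The 16 ribosomal protein pseudogene symbols held 46978 UMIs in control and 65051 in stimulated cells, 0.0530 and 0.0555% of all UMIs and far above the 3 counts taken as the floor. Rpl23a-ps3 (189 and 191 CPM) and Rps12-ps3 (144.5 and 172 CPM) were the most abundant, and every 3′ end window of both matches another listed gene.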

How the results depend on the processing

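No paired analysis was possible because each group has 1 library. Against 3 members higher, 4 lower and a median log2 fold of 0.10, TMM scaling gave 14, 0 and 0.20, and the median of all genes set to 0 gave 7, 1 and 0.16. A total without mitochondrial and ribosomal protein genes gave 1 lower, a call at 1.5-fold 0 lower, the mean over cells 6 higher and a median of 0.17, cells with 0 cycling UMIs 8 higher and 0.17, cells with at least 5 cycling UMIs 1 lower, and sums with near copies 2 lower, where Rpl41 reversed to 0.053. The share of UMIs in members (33.6 and 35.7%, difference 2.11 points) was 33.5 and 35.7% (2.14) over all deposited barcodes, 32.9 and 35.6% (2.74) as a median over cells, 34.1 and 36.1% (2.03) without mitochondrial UMIs, 34.0 and 35.8% (1.77) in cells of 10000 to 40000 UMIs, 33.8% in the control (1.91) without marker-bearing cells, and 33.6 and 35.7% with pseudogene symbols. The depth difference of the control library reversed from 6.50 to -2.44 points with bins of UMIs outside members (stimulated -7.37). Total and outside UMIs are linked to the share in opposite directions. The control difference was 6.78 over all barcodes and 5.64 without marker-bearing cells. The cycling difference (-2.05 control, -3.32 stimulated) was -1.73 and -2.96 at 3 cycling UMIs, -3.05 and -3.62 at 8, -2.42 and -3.45 at 10000 UMIs, and -2.19 and -3.06 with another seed. The cause of these moves was not tested. Shallow paralogs (Rpl3l, Rpl10l, Rpl39l) are limited by depth.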

Other observations

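Outside the members, over genes averaging 0.2 UMIs or more in cells thinned to 5000 UMIs, Rpl39 correlated most with Eef1b2 (Pearson r 0.34 in control and 0.32 in stimulated cells), mt-Co2 (0.30 and 0.34) and Sec61g (0.30 and 0.30), and most negatively with Pfn1 (-0.14 and -0.19). These genes were named after their values were seen. In the shallowest class, below 3000 UMIs, the median mitochondrial share was 0.851% in control and 0.304% in stimulated cells, beside the low ribosomal protein share given above.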
